A study of Mus musculus with 32 samples.

Results

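RNA was compared between A04 and A10, which are 2 clones of mouse embryonic stem cells (ESC) with the same genotype, so that the differences describe variation between control subclones. The 6 libraries, 3 of each clone, were taken by their labels from the 32 libraries of the series, and genes of the Y chromosome were left out. Both clones are of strain 129S5/SvEvBrd and carry the genotype Smarce1-MD(R42A), and every other library of the series carries either this form or Smarce1-MD. The protein of Smarce1, BAF57, is part of the chromatin remodellers of the SWI/SNF (BAF) family. The labels do not say what MD stands for. It is read here, from background knowledge, as a mitotic degron, a tag that has the protein degraded at the exit from mitosis, with R42A as the inactive version of the tag. The ESC were untreated and grown on gelatin in Knockout DMEM with serum, NEAA, GlutaMAX, beta-mercaptoethanol and mLIF. For reference, the same clone labels were also sequenced after 6 days in the neural medium RHB-A (2 libraries each). Another pair of R42A clones (A01, A02) and 4 MD clones (09, 30, 45, 47) were sequenced as ESC (3 libraries each). Going by the library numbering in the labels, A04, A10, 09 and 30 form a first series of libraries, and A01, A02, 45 and 47 a second. Each group is 1 clone, and nothing in the labels says whether its libraries came from separate cultures, so p-values measure the spread between libraries, which may be technical, and not the spread between clones.

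Mouse ESC grown with serum and LIF are a mixed population. Most cells hold the pluripotency network of Pou5f1, Sox2 and Nanog, while a small and changing share passes through a state resembling the embryo at the 2-cell stage, marked by bursts of the Zscan4 genes, and others start to express genes of primitive endoderm or other lineages. ESC clones are also known to drift in culture, through DNA methylation at germline and imprinted genes and through gains of whole chromosomes. A subclone starts from a single cell, so sister clones of 1 genotype can differ in each of these respects.

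Total expected counts were 61407377, 65106848 and 96424439 in the A04 libraries and 84240654, 79269803 and 66085639 in the A10 libraries. Libraries of A04 differed from each other as much as they differed from A10. The median absolute log2 ratio between pairs of libraries ran from 0.260 to 0.327 (median 0.316) within A04, from 0.0826 to 0.150 (median 0.109) within A10, and from 0.210 to 0.366 (median 0.290) between the clones. The biological coefficient of variation in edgeR was 22.3% in A04, the highest of the 8 ESC clones, and 6.51% in A10, the lowest. Over genes, the deviation of a library from the mean of the 6 was related to transcript GC content, with Spearman's rho of -0.50, 0.56 and -0.22 in A04 replicates 1, 2 and 3, and 0.16, -0.18 and 0.35 in A10. No pair of libraries within either clone agreed within sampling noise.

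The 6 ESC markers were abundant in both clones, and 1 of them, Zfp42, was called different (described with chromosome 8). Pou5f1 (Oct4), the defining factor of pluripotent cells, was at 693, 1091 and 896 CPM (counts scaled to library size) in A04 and 822, 751 and 893 CPM in A10. The groups overlapped, and the log2 difference, A04 minus A10 here and throughout, was 0.12 ± 0.16 (SE, adjusted p = 0.689). For Sox2 and Nanog, its partners, the log2 differences were -0.00 ± 0.09 and -0.12 ± 0.09, and neither passed the test. Smarce1 itself (chromosome 11, 99209047 to 99231017 in mm10) was at 141, 119.7 and 125 CPM in A04 and 101, 106 and 98.2 CPM in A10. The groups did not overlap, but the log2 difference of 0.34 ± 0.09 missed the threshold (adjusted p = 0.0576). Defining markers of blood (Ptprc, Hbb-bh1) and trophectoderm (Cdx2, Elf5, Gata3) lay below 1 CPM in every library. Of the feeder fibroblast markers Lum was at 0 and Dcn and Col3a1 below 1 CPM, but the others were detected. Thy1 was at 2.9 to 7.1 CPM in A04 and 7.2 to 8.5 CPM in A10 and was not called. Col1a1 (-1.69) and Col1a2 (-1.45) were called lower in A04.

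Of 19378 genes tested, 1942 (10.0%) were called different, that is, had an adjusted p under 0.05 in edgeR's quasi-likelihood test with Benjamini-Hochberg adjustment. A04 was higher at 968 (5.0%) and lower at 974 (5.03%), and 1094 (5.65%) differed by at least 2-fold. The median absolute log2 difference over all tested genes was 0.22. The libraries of the clones did not overlap at 6218 genes (32.1%). Genes called higher in A04 included 143 of 2067 tested pseudogenes and 133 of 1621 long noncoding RNAs, against 22 and 63 called lower, while protein-coding genes were called lower more often (877) than higher (670). The count of calls depended on single libraries. It was 4780 without A04 replicate 2, and 723, 769 and 813 without A10 replicate 1, 2 or 3.

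Genes of the 2-cell-like state were higher in A04. Of 21 tested members of the list for this state, 20 were called higher in A04 and 0 lower, with a median log2 difference of 2.20, beside 5.0% of all genes called higher and a median of 0.00 over all genes. The count of 20 was the same without any 1 of the 6 libraries. The exception was Zfp750, at 0.26 and not called. Many members are copies within families (Zscan4, Usp17l, Tdpoz), so the 20 are not separate observations. Shared sequence was measured only for the Zscan4 genes. The Zscan4 genes encode zinc finger and SCAN domain proteins that mark this state in ESC and act at telomeres. They are a cluster of similar copies on chromosome 7, and the stretches before the start of 4 of them are shown here because they show how alike these 4 are, also outside the transcript. They are RefSeq promoter sequence (build GRCm38.p6), 122 bases each, and capitals mark the single TATAAA match on the gene's strand, which lies 31 to 65 bases before the annotated start.
Zscan4b: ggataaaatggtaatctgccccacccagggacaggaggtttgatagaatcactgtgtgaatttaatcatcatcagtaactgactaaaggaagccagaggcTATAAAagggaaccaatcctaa
Zscan4c: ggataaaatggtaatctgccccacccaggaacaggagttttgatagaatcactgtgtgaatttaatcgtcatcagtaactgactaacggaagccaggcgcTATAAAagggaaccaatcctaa
Zscan4d: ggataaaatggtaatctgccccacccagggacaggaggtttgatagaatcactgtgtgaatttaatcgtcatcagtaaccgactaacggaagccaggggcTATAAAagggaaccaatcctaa
Zscan4f: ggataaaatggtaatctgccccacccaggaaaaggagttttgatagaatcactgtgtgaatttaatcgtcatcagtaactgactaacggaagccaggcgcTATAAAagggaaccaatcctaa
These stretches lie at chr7:10905060-10905181 (minus strand), chr7:11005591-11005712 (plus), chr7:11166192-11166313 (minus) and chr7:11397784-11397905 (plus), in that order. Pairs of them were identical at 94.3% to 99.2% of bases. The 4 were picked for a single TATAAA match on the gene's strand and lined up on it, so the match is no result. The promoters of the other copies were not compared. Of all 32851 promoters in the table, each 300 bases long, 8.3% had a match on the gene's strand and 13.6% on either strand. Between 48.4% and 90.1% (median 85.5%) of the 50-base stretches in the GENCODE M21 transcripts of each of the 9 Zscan4 genes occurred in another copy as well. How the reads were divided among the copies is therefore uncertain, and their sum is the firmer value.

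Summed over the 9 Zscan4 genes, the level was 1075, 1172 and 1679 CPM in A04 and 189, 204 and 169 CPM in A10. All A04 libraries lay far above all A10 libraries, and replicate 3 was the highest. The difference was 6.87-fold, with an exact two-sided permutation p of 0.1, the smallest that 3 libraries against 3 can give. Zscan4c (ENSMUSG00000054272.6, chromosome 7, 11005745 to 11010547) was at 197 ± 45.9 CPM in A04 and 29.3 ± 3.49 CPM in A10 (SD, n = 3 libraries), a log2 difference of 2.74 ± 0.18 (adjusted p = 0.000147). The 6 copies Zscan4a to Zscan4f differed by 2.68 to 3.08.

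The other members of the list moved in the same direction at lower levels. Zfp352, a zinc finger gene of the 2-cell embryo, was at 4.93, 5.05 and 12.1 CPM in A04 and 1.73, 1.69 and 1.22 CPM in A10 (log2 difference 2.25 ± 0.37, adjusted p = 0.00666). Tdpoz3 and Tdpoz4, which encode BTB domain proteins, differed by 2.38 and 2.47, and 5 Usp17l deubiquitinase copies by 2.05 to 2.23. Tcstv3 differed by 2.20 and Arg2, an arginase, by 2.10. Among the 10 genes with the largest called differences in favour of A04 and at least 5 CPM, 7 were on this list and 3 were not. Dcc, the netrin receptor of growing axons, was at 4.10, 5.18 and 10.4 CPM in A04 and 0.800, 0.971 and 0.767 CPM in A10, a log2 difference of 2.96 ± 0.36. Abcb5, an ABC transporter, differed by 2.98 ± 0.31 and Ccser1 by 2.45 ± 0.34. For each of these 3, as for Zfp352 and most Zscan4 genes, A04 replicate 3 was the highest library. The rule that picked the 10 genes required that the libraries of the clones not overlap, so their separation is no further result.

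**Figure D1:**
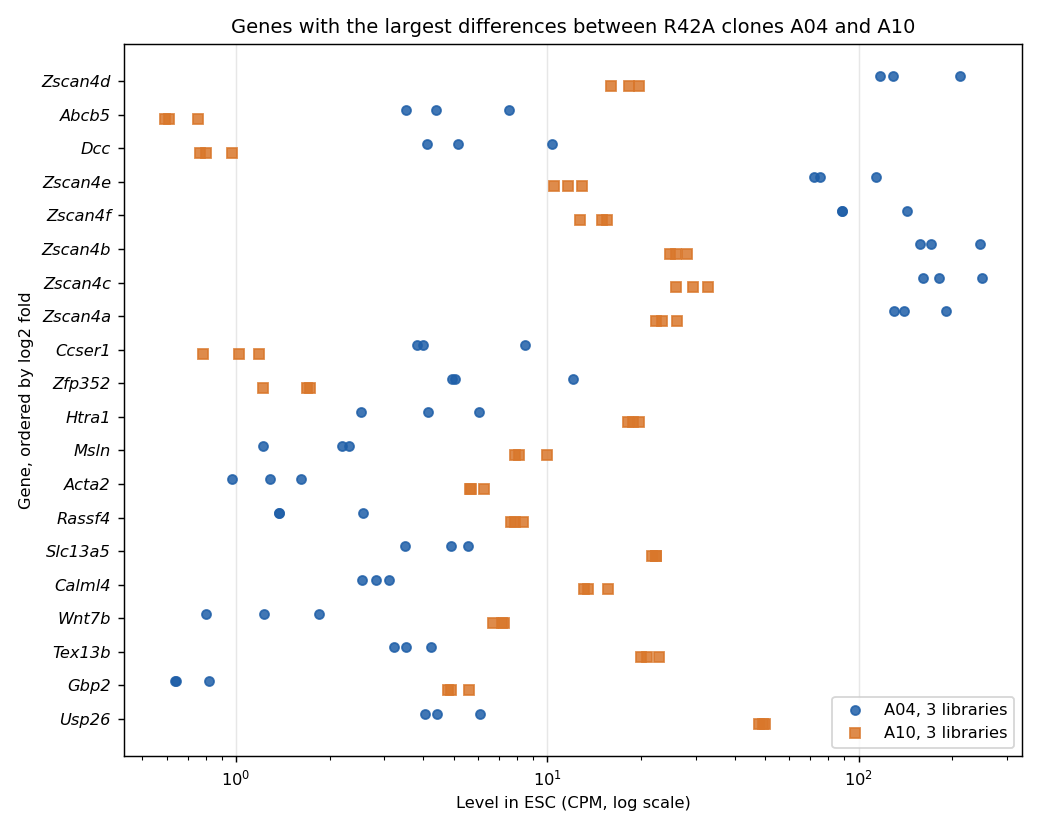
Levels of the 10 genes with the largest and the 10 with the smallest log2 difference (A04 minus A10) under the naming rule, in CPM on a log axis, with 1 point for each of 3 A04 libraries (circles) and 3 A10 libraries (squares). The clones do not overlap at any of the 20 genes, which the naming rule required. The A04 points are more scattered, and Usp26 at the bottom lies near 5 CPM in A04 and 49.0 CPM in A10.

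The lowest gene in A04 relative to A10, among called genes with at least 5 CPM in A10, was Usp26, an X-linked deubiquitinase of the testis (ENSMUSG00000055780.10, chromosome X, 51753959 to 51801233). It was at 6.07, 4.04 and 4.44 CPM in A04 and 49.2, 50.2 and 47.7 CPM in A10. The log2 difference was -3.34 ± 0.17 (adjusted p = 7.06e-05), and the groups lay far apart. Tex13b, another X-linked testis gene, was at 4.25, 3.22 and 3.51 CPM against 20.9, 22.9 and 19.985 CPM, a difference of -2.54 ± 0.15. Slc13a5, a citrate transporter, was at 3.49, 4.89 and 5.58 CPM against 22.3, 22.3 and 21.7 CPM, a difference of -2.24 ± 0.18. The others of the 10 lowest were Gbp2, Wnt7b (a Wnt ligand), Calml4 (a calmodulin-like protein), Rassf4, Acta2, Msln (mesothelin) and Htra1 (a secreted protease), with differences from -2.15 to -2.87. Germline genes as a list were split. Of 22 tested germline and meiosis genes 3 were called higher and 2 lower, beside 5.0% and 5.03% of all genes. Their median was -0.08, and they ran from -1.13 (Asz1) to 1.26 (Nanos3). Without 1 A10 library 1 or 2 were called higher and 0 lower.

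X-linked genes of the Rhox cluster, homeobox genes of the germline and placenta that are silenced by DNA methylation in many cells, were lower in A04. Of 14 tested members of the list for this cluster and its placental neighbours, 6 were called lower and 0 higher (median log2 difference -0.54), beside 92 of 762 tested genes of chromosome X and 5.03% of all genes called lower. The count was 8 without A04 replicate 2, and 3 or 4 without 1 A10 library or A04 replicate 3. Rhox5 was at 17.2, 18.0 and 16.4 CPM in A04 and 61.3, 62.0 and 65.5 CPM in A10. The libraries within each clone were close together, and the log2 difference was -1.87 ± 0.10 (adjusted p = 7.06e-05). Rhox2a was at 0.451, 0.441 and 0.447 CPM against 2.90, 2.95 and 2.54 CPM, a difference of -2.64 ± 0.19, and Rhox6 differed by -1.07 ± 0.19. Rhox copies share sequence, so the division of reads among them is uncertain. Dppa3 (Stella), which protects the maternal genome from demethylation and is lost as cells leave the naive state, was at 7.17, 10.9 and 9.80 CPM in A04 and 26.9, 30.03 and 26.7 CPM in A10, a difference of -1.58 ± 0.17 (adjusted p = 0.0011). Dnmt3a, a de novo DNA methyltransferase, was higher in A04, at 282 ± 36.9 against 176 ± 7.95 CPM (0.68 ± 0.11). It was the 1 called gene of 14 on the DNA methylation list (7.14%), a share near that of all genes (10.0%). Of the 14, 8 lay above 0, while Dnmt3b (-0.08) and Dnmt3l (-0.40) lay below 0. A link between Dnmt3a and the genes above was not tested.

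Genes of primitive endoderm, the layer that forms the yolk sac, were lower in A04. Of 22 tested endoderm genes, 13 were called lower and 0 higher, and the log2 difference was below 0 at every tested member (median -1.19), beside 5.03% of all genes called lower. Without any 1 library between 11 and 16 were called lower. Gata4, a transcription factor that specifies the lineage, was at 1.29, 1.57 and 1.45 CPM in A04 and 4.65, 4.39 and 4.96 CPM in A10, a difference of -1.70 ± 0.17 (adjusted p = 0.000841). Its partner Gata6 differed by -1.44 ± 0.23. Dab2, an endocytic adaptor, was at 5.12, 5.53 and 6.96 CPM against 16.5, 17.1 and 18.7 CPM (-1.56 ± 0.16). Cubn, the receptor cubilin of the yolk sac, was at 6.603, 5.26 and 12.5 CPM against 29.9, 31.3 and 36.3 CPM (-1.99 ± 0.29). The clones did not overlap at any of these 4 genes. Nor did they at any of the 915 called genes with at least 5 CPM in the higher clone, so this is no further result. Of all tested genes 32.1% did not overlap. Basement membrane genes of the same lineage, Lama1 (-1.44), Col4a1 (-1.09), Col4a2 (-1.30) and Sparc (-1.02), were called as well, and Sox17 differed by -1.78 at levels below 1 CPM. In bulk RNA fewer cells of a type and less RNA per cell cannot be told apart.

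Some epithelial and smooth muscle genes were lower in A04, beside 5.03% of all genes called lower. Of 13 tested trophectoderm genes, 7 were called lower and 0 higher in A04 (median -0.64), with 4 called lower without any 1 of the A10 libraries. The called members were the simple keratins Krt7, Krt8, Krt18 and Krt19, together with Hand1, Tead4 and Ets2. Krt8 was at 6.37, 9.85 and 7.06 CPM in A04 and 19.4, 17.8 and 21.3 CPM in A10 (-1.33 ± 0.18). Eomes and Tfap2c, which are transcription factors of that lineage, lay at -0.03 and -0.07 and were not called. Of 14 tested surface epithelium genes 4 were called lower, among them Cldn7, a tight junction claudin (-1.56 ± 0.30), while 5 lay above 0 and the summed levels of the clones overlapped. Of 13 tested fibroblast and smooth muscle genes 6 were called lower (median -0.72, with summed levels that overlapped), but 2 without A04 replicate 1 or without 1 A10 library. Acta2, smooth muscle actin, was at 1.29, 0.973 and 1.62 CPM against 5.71, 5.66 and 6.27 CPM (-2.17 ± 0.21), and Tagln differed by -1.63 ± 0.20. The summed level of the 6 feeder fibroblast markers was 4.11 to 9.29 CPM in A04 and 10.5 to 13.0 CPM in A10, and its part in these differences was not tested. Col1a1 accounted for 0.458 to 1.55 CPM in A04 and 2.30 to 3.26 CPM in A10.

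Interferon-related and lipid synthesis genes were also lower in A04. Beside 5.03% of all genes called lower, the lists had the following counts. Of 20 tested genes of the interferon and antigen presentation list, 8 were called lower and 0 higher (median -0.64). Without A04 replicate 2 there were 15 called lower, without A04 replicate 1 there were 7, and without 1 A10 library 6 or 7. Gbp2, a guanylate-binding GTPase induced by interferon, was at 0.819, 0.638 and 0.643 CPM in A04 and 4.91, 5.61 and 4.79 CPM in A10 (-2.87 ± 0.19). Gbp3 differed by -2.95 ± 0.26, and Irf1, a transcription factor upstream of such genes, by -1.07 ± 0.12 (15.0 ± 1.84 against 31.6 ± 0.603 CPM). Irf9 (0.09), which carries the interferon signal, was not called. Of 24 tested cholesterol and fatty acid synthesis genes, 9 were called lower and 0 higher (median -0.55). This count was 18 without A04 replicate 2, and 3 or 4 without 1 A10 library. Scd1, the stearoyl-CoA desaturase, was at 133, 146 and 92.9 CPM in A04 and 229, 222 and 226 CPM in A10 (-0.86 ± 0.15, adjusted p = 0.00961). Cyp51 (-0.86) and Fdft1 (-0.79), enzymes of sterol synthesis, were called as well. The summed level of the list was 2610 to 3704 CPM in A04 and 4361 to 4594 CPM in A10, lowest in A04 replicate 3, and the clones did not overlap.

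**Figure D2:**
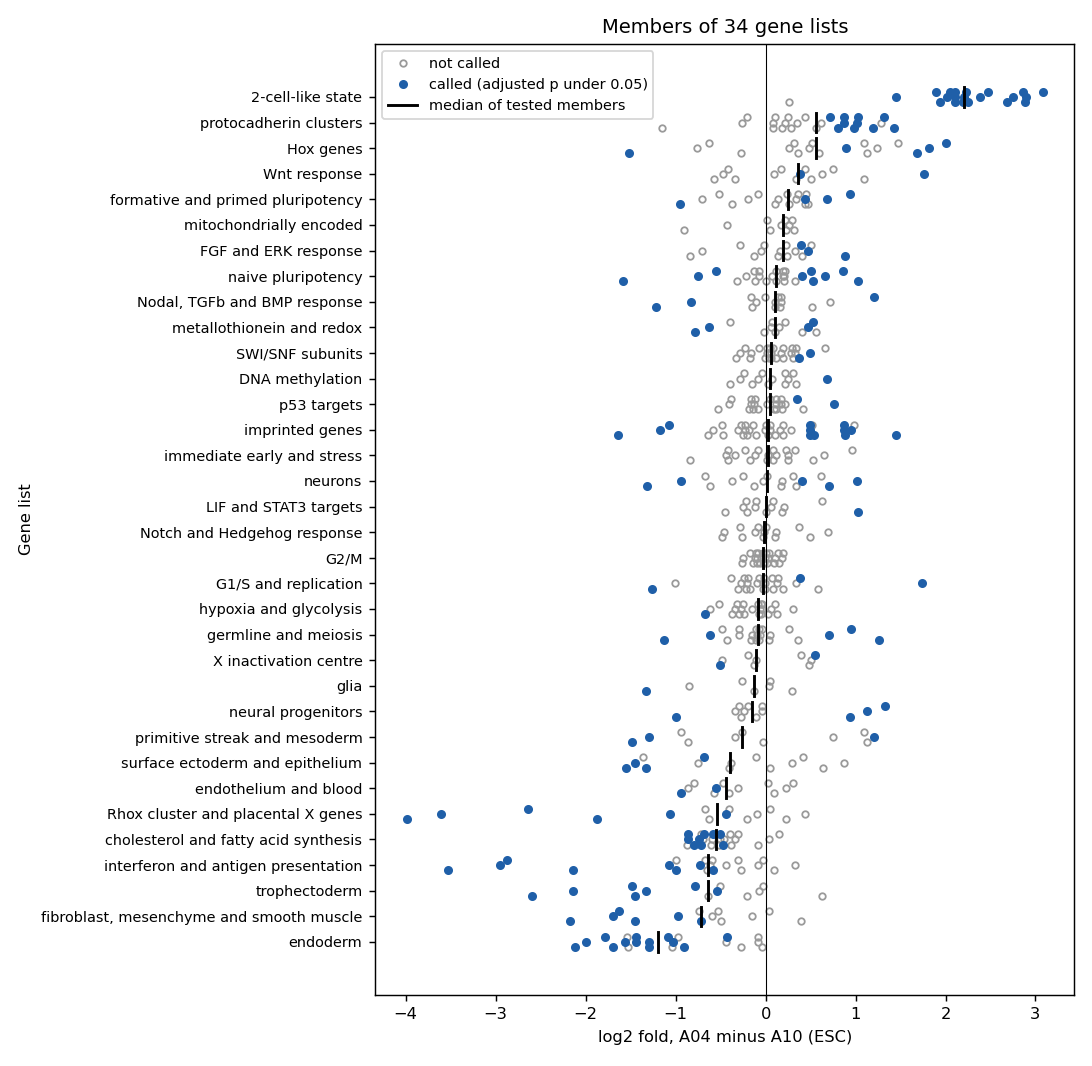
Log2 difference (A04 minus A10, ESC) of every tested member of 34 gene lists, 1 point per gene, with filled points for genes called at an adjusted p under 0.05, open points for the others and a bar at the list's median. The list of the 2-cell-like state lies far to the right (median 2.20), endoderm farthest to the left (median -1.19), and G2/M genes lie close to 0 with 0 called.

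Other lists were split, beside 5.0% of all genes called higher and 5.03% lower, and single genes within them were higher in A04. Of 25 naive pluripotency genes 6 were called higher and 3 lower, but only 1 higher without 1 A10 library. Gbx2, a homeobox gene induced by LIF, was at 45.1, 39.8 and 77.8 CPM in A04 and 27.1, 25.9 and 26.9 CPM in A10 (1.03 ± 0.23), and Dppa2, which acts upstream of 2-cell genes, differed by 0.86 ± 0.17. Of 12 tested neural progenitor genes 3 were called higher (Pax6, Sox1 and Sox3) and 1 lower (Prom1, -0.9995), and the median of the list was -0.15 with 3 members above 0. Pax6 and Sox1 encode transcription factors. Pax6 was at 13.4, 12.1 and 18.1 CPM against 5.75, 5.71 and 5.88 CPM (1.33 ± 0.17), and Sox1 at 13.0, 10.5 and 12.3 CPM against 5.404, 5.65 and 5.38 CPM (1.12 ± 0.14). Nes, an intermediate filament of the same cells, was not called (-0.27). Ccnd2, a G1 cyclin, was at 51.1, 30.9 and 62.5 CPM against 14.5, 14.7 and 14.1 CPM (1.74 ± 0.23).

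Of 16 FGF and ERK response genes 3 were called higher and 0 lower, beside 5.0% of all genes higher and 5.03% lower, all 3 feedback inhibitors of the pathway. These were Spry4 (244 ± 30.5 against 132 ± 3.26 CPM, 0.88 ± 0.11), Dusp6 (0.48 ± 0.11) and Spry2 (0.39 ± 0.10). Of the 16, 10 lay above 0, and the lowest, not called, was at -0.83. Without 1 A10 library 1 was called higher and 0 lower, and without A04 replicate 3 there was 1 called higher and 1 lower. Of 25 tested clustered protocadherins, cell surface adhesion genes of which a cell expresses a chosen few, 10 were called higher and 0 lower (median 0.56), and 3 to 5 without 1 A10 library. Pcdhgb5 was at 4.31, 3.28 and 5.69 CPM against 1.72, 1.62 and 1.61 CPM (1.43 ± 0.22). The isoforms of the gamma cluster share exons, so their counts are uncertain. Of 37 imprinted genes 9 were called higher and 3 lower. Igf2, a growth factor expressed from the paternal allele, was lower in A04 at 2.27, 2.60 and 1.95 CPM against 7.03, 7.17 and 6.99 CPM (-1.64 ± 0.17). H19, its neighbour expressed from the maternal allele, did not pass (-0.25 ± 0.14). Meg3, a maternally expressed RNA, was higher at 257, 272 and 255 CPM against 192, 171 and 195 CPM (0.49 ± 0.09). Leaving out 1 A10 library left 3 to 5 imprinted genes higher, and without A04 replicate 2 there were 7 lower. Of 27 SWI/SNF subunits 2 were called higher, a share near that of all genes, Arid1a (0.50 ± 0.10) and Brd7 (0.37 ± 0.09), the latter on chromosome 8, and neither was called without 1 of the A10 libraries. In edgeR 0 of 24 G2/M genes, 0 of 21 immediate early and stress genes and 0 of 14 Notch and Hedgehog genes were called, while 2, 7 and 3 had an unadjusted p under 0.05 and DESeq2 called 0, 4 and 1. Without A04 replicate 2 these lists had 3 and 2, 2 and 2, and 1 and 2 called higher and lower.

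Genes of chromosome 8 were higher in A04 as a group. The median log2 difference over its 986 tested genes was 0.29, 80.9% of them lay above 0, and 192 were called higher and 13 lower. The chromosome held 5.09% of tested genes and 19.8% of the genes called higher. The median deviation of its genes from the mean of the 6 libraries was 0.096, 0.22 and 0.11 on the log2 scale in A04, and -0.13, -0.17 and -0.095 in A10. The clones did not overlap, with an exact two-sided permutation p of 0.1, the smallest possible (adjusted p = 0.286 over 20 chromosomes). The shift ran along the whole chromosome, with a median of 0.22 to 0.37 in each of its 13 windows of 10 Mb. The 5 most abundant genes called there were Sf3b3 (a splicing factor), Smarca5 (an ISWI remodeller), Hmgb2, Aars and Zfp42 (Rex1, a marker of naive ESC). Sf3b3 was at 1086, 1058 and 1093 CPM in A04 and 773, 769 and 746 CPM in A10 (0.50 ± 0.08, adjusted p = 0.00644), and Zfp42 differed by 0.41 ± 0.11. Once each chromosome was scaled separately, none of these 5 was called, and without A10 replicate 1 or 3 none was either. DNA was not measured, so the number of copies of the chromosome was not tested.

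The other chromosomes moved less. The median was 0.067 on chromosome 13 and 0.046 on chromosome 3. Below 0, the medians were -0.12 on chromosome 11, -0.11 on chromosome 15, -0.083 on chromosome 6, -0.077 on chromosome 14 and -0.063 on chromosome X. The 6 libraries did not overlap by clone on chromosomes 6, 8, 11, 12, 14, 15 and X, each with an exact permutation p of 0.1 (adjusted p = 0.286). On 2 of these the clones almost met. The nearest libraries of A04 and A10 were at -0.0026 and -0.0034 on chromosome 12, and at 0.02277 and 0.02279 on X. Within chromosomes, the first 10 Mb of chromosome 14 (median -0.33, 75 genes) and the 140 to 150 Mb window of chromosome X (median -0.37, 41 genes) lay farthest below 0 among windows with 20 or more genes. Among these windows outside chromosome 8, 100 to 110 Mb of chromosome 10 (median 0.32, 35 genes) lay farthest above 0. Some windows with fewer genes lay higher, such as 120 to 130 Mb of chromosome 13 (2.05, 9 genes) and 10 to 20 Mb of chromosome 5 (0.55, 18 genes).

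**Figure D3:**
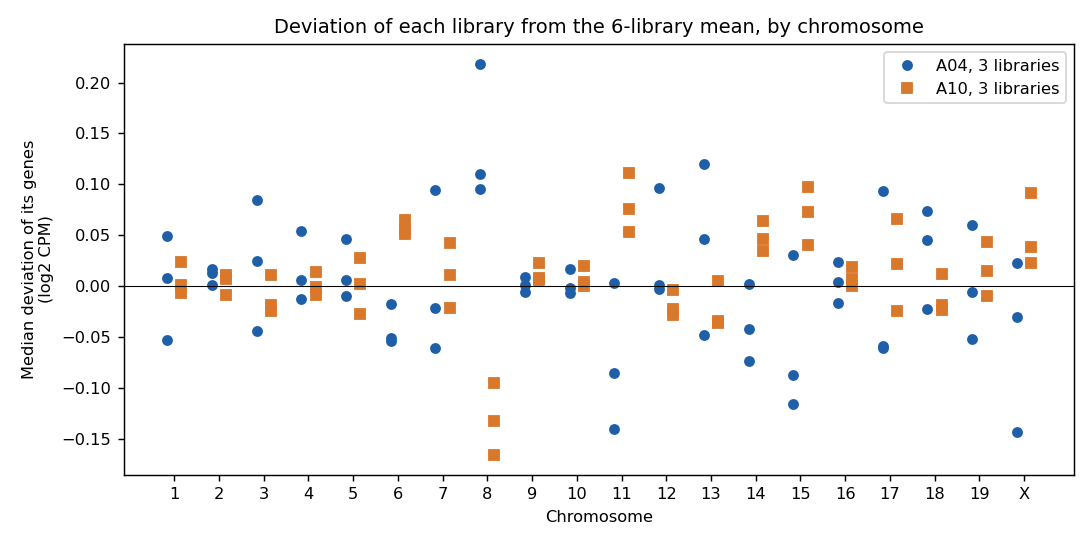
Median deviation of each chromosome's genes from the mean of the 6 libraries, in log2 CPM, with 1 point for each of 3 A04 libraries (circles) and 3 A10 libraries (squares). On chromosome 8 the A04 libraries lie at 0.096 to 0.22 and the A10 libraries at -0.17 to -0.095, while on most other chromosomes the clones overlap or lie closer to 0.

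The libraries with the same clone labels after 6 days in neural medium showed almost none of these differences. Whether these labels mark separate clones in the neural cultures cannot be checked in these files, which bears on every neural and interaction value. Of 19354 genes tested there, 6 (0.0310%) were called between A04 and A10, beside 547 at an unadjusted p under 0.05. Of the 1372 genes called in ESC and tested in neural cells, 3 were called and 0 of these in the same direction, and 45.04% of the 1372 had the same sign in both, beside 45.4% of all genes. Usp26 was at 0.431 and 0.425 CPM in neural A04 and 0.344 and 0.363 CPM in neural A10. The Zscan4 sum was 4.76 and 3.72 CPM against 4.22 and 3.71 CPM. Gata4, which was more abundant in neural cultures than in ESC, was at 47.7 and 42.9 CPM against 37.2 and 40.9 CPM (0.21 ± 0.09, not called). Acta2 was at 84.2 and 87.1 CPM against 86.2 and 89.6 CPM. The median over genes of chromosome 8 was 0.0067 in neural cells.

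The difference between stages was tested itself, as an interaction over the 10 libraries of both clone labels. It was called at 346 of 21311 genes (1.62%). This count rests on single libraries, with 2191 called without ESC A04 replicate 2, 548 and 599 without ESC A04 replicate 1 or 3, 146 to 169 without 1 ESC A10 library and 74 to 110 without 1 neural library. Of 1934 genes called in ESC and tested here, 338 (17.5%) differed, and in all 338 the interaction had the opposite sign to the ESC difference. The ESC libraries enter both tests, so this direction is not independent of the first. For Usp26 the neural minus ESC difference was 3.61 (adjusted p = 0.000703), for Rhox5 1.94 (adjusted p = 0.000122) and for Zscan4d -3.10 (adjusted p = 0.0155). Whether stage or library series goes with these values cannot be told apart.

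The 6 genes called in neural cells, named after their values were seen, were Lgals9, Nrk, Gdf1, Pde2a, Gm45837 and Gm49325. Nrk, an X-linked kinase of the placenta, was at 30.1 and 25.8 CPM in neural A04 and 19.9 and 17.7 CPM in neural A10, a log2 difference of 0.57 ± 0.08, but in ESC the difference was -1.39 ± 0.26. Pde2a and Gm45837 overlap on chromosome 7 and were called in opposite directions at the 2 stages as well. Gm45837 was listed at 0 in both neural A04 libraries and at 1.73 and 2.18 CPM in neural A10, but in ESC at 1.64 to 2.29 CPM in A04 and 0 in A10. For overlapping genes an expected count divides reads by estimation, so these values are uncertain.

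**Figure D4:**
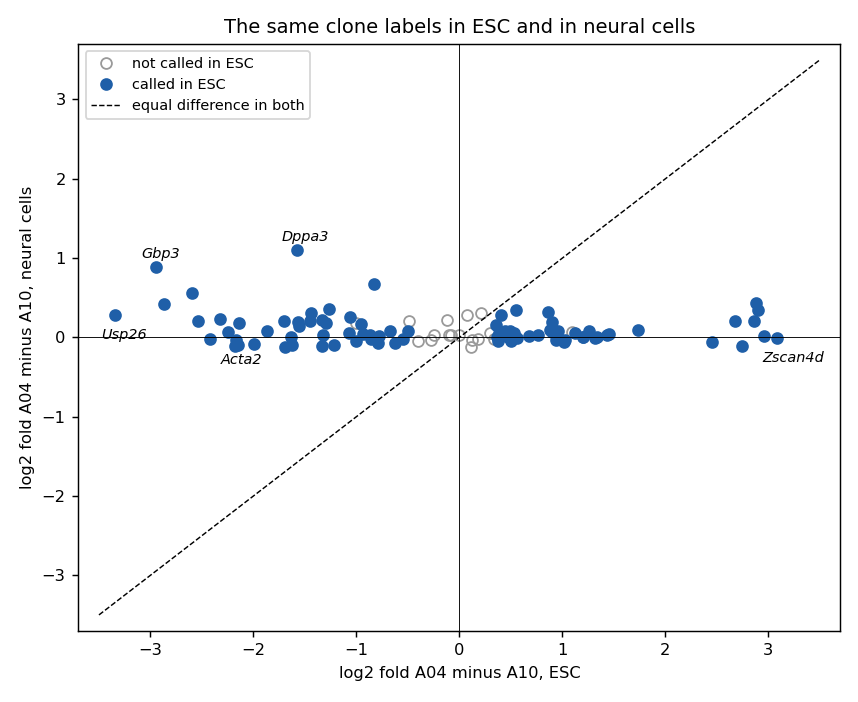
Log2 difference between the clone labels A04 and A10 in ESC (x axis) and in neural cells (y axis) for the 101 named genes tested in both, with filled points for genes called in ESC, open points for the others and a dashed line where both would be equal. ESC differences span -3.34 to 3.08, while neural differences lie between -0.12 and 1.10 and the points follow the horizontal axis.

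The other pairs of sister clones fitted were A01 and A02, and 09 and 30. Between A01 and A02, the R42A pair of the second series, 479 of 17838 genes were called (2.69%), but 6717 with the replicate number as a block. Same-numbered libraries of this pair correlated at r = 0.059, 0.48 and 0.50, so whether the numbers pair them is uncertain. Which pair of clones differs more can therefore not be read from these counts. Between the MD clones 09 and 30 of the first series, 24 of 19133 were called (0.125%), and 309 with the replicate number as a block, which paired these libraries. The pairs differ in library spread and depth, and the counts were not tested against each other. Of the genes called between A04 and A10 and tested in the other pair, 170 were also called between A01 and A02. These are 10.1% of the first list and 35.6% of the second, beside 2.70% of all genes, and the 2 comparisons share no library. All 170 had the same sign, with A04 on the side of A01 and A10 on the side of A02, 56 of them higher and 114 lower in A04, while 70.7% of all genes tested in both had the same sign. Slc13a5 was at 4.47 ± 1.09 CPM in A04 and 5.39 ± 0.555 CPM in A01, but at 21.4 ± 0.260 CPM in A10 and 15.1 ± 0.630 CPM in A02 (SD, n = 3 libraries, all 8 ESC clones scaled together). Tex13b stood at 3.497, 4.08, 20.5 and 12.8 CPM in A04, A01, A10 and A02. Calml4, Htra1, Msln, Wnt7b, Gata4, Mapt (tau) and Sox1 were among the named genes called in both pairs. Without 1 library of A01 or A02, the calls between these clones fell to between 12 and 280.

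Many of the genes that separate MD from R42A clones also differed between A04 and A10, and at most of those higher in MD A10 lay on the side of MD. The genotypes were compared in the second series only, which shares no library with A04 and A10, as the sums of clones 45 and 47 against those of A01 and A02. In that fit 4898 of 21020 genes were called (23.3%). Of the genes tested in both, 961 were called in both comparisons (50.2% of the A04 and A10 list and 20.8% of the genotype list, beside 23.9% of all genes tested in both called between genotypes), and in 886 of them the sign of A04 minus A10 was opposite to that of MD minus R42A. Over all genes tested in both, 38.2% had the same sign. Among 53 genes at least 4-fold higher in the MD clones with 5 CPM or more, 34 were called lower in A04 than in A10 and 0 higher, beside 5.03% of all genes called lower. A10 lay between A04 and the mean of the first-series MD clones at 50 of the 53. The median gene in A10 had gone 20.8% of the way from A04 to those MD clones (quartiles 9.35% and 33.1%). Of 26 genes at least 4-fold lower in MD, 10 were called higher in A04 and 3 lower. For these 26 A10 did not lie closer to MD as a group, with A10 between A04 and MD at 12, above A04 at 13, and a median of 5.42% of the way (quartiles -30.6% and 55.7%).

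Usp26 shows the order of the clones. It was at 4.63 ± 0.937 CPM in A04, 2.60 ± 0.404 in A01, 7.95 ± 1.15 in A02 and 47.4 ± 0.833 in A10, and at 169 ± 41.6, 164 ± 7.45, 101 ± 0.825 and 103 ± 11.1 in the MD clones 09, 30, 45 and 47 (SD, n = 3 libraries). A10 thus lay apart from the other 3 R42A clones and below all MD clones. Rhox5 was at 16.5, 13.9, 25.04 and 60.9 CPM in A04, A01, A02 and A10 and at 83.2 to 110.4 CPM in the MD clones. Dppa3 was at 8.93, 3.75, 6.22 and 27.0 CPM in the same R42A order and at 71.3 to 109.5 CPM in MD. At Tex13b and Gata4 A10 did not lie between the other R42A clones and the MD clones. Tex13b was highest in A10 but below 1.3 CPM in every MD clone, and Gata4 was higher in A10 (4.52 CPM) than in any MD clone (1.81 to 2.79 CPM). Zscan4c was highest in A04 at 189 ± 46.2 CPM, with A01 and A02 at 73.5 and 55.0 CPM. A10, at 28.4 ± 3.12 CPM, lay below these 3 R42A clones and within the range of the MD clones (14.4 to 47.4 CPM). The median deviation of chromosome 8 genes from the mean of all 24 ESC libraries was 0.19 in A04, 0.39 in A01 and 0.26 in A02, against -0.057 in A10 and -0.28 to -0.095 in the MD clones.

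**Figure D5:**
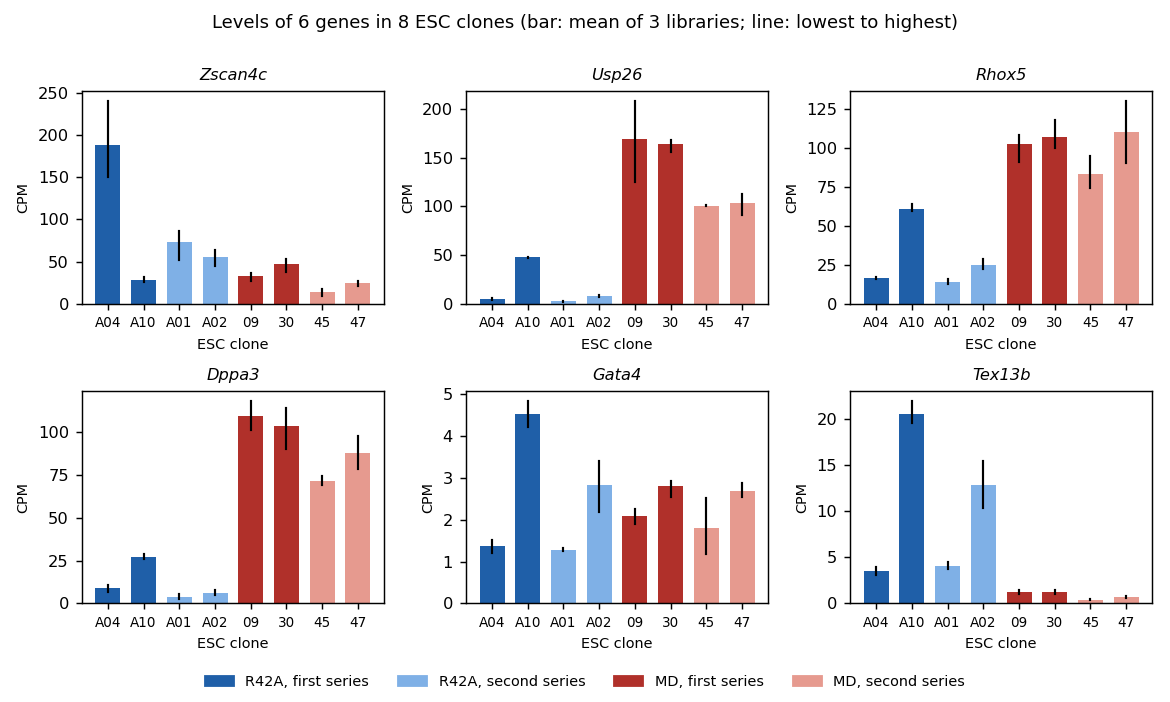
Levels of 6 genes in the 8 ESC clones, in CPM, with bars for the mean of 3 libraries and lines from the lowest to the highest library. Zscan4c is highest in A04 (189 CPM). Usp26, Rhox5 and Dppa3 are higher in A10 than in the other R42A clones and higher still in the 4 MD clones, and Gata4 and Tex13b are highest in A10.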

How the data were processed

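RNA-seq tables of 32 mouse libraries were used, 6 of them for the main comparison. The values that the authors deposited are expected counts per gene, not normalised, and 1.46% to 1.70% of them departed from a whole number by more than 1e-06. Per the submitters' processing notes, RSEM 1.3.0, STAR 2.7.1a, Trim Galore 0.60 and DESeq2 were used with the build mm10, and their roles are not given. The annotation release and the use of strand are not given in the sources used here, so overlapping and antisense genes are uncertain. Each table has 55665 entries, including 92 spike-ins with a total of 0. Positions came from GENCODE M21 (55480 of 55573 genes matched by identifier, 300 of them without version), and 1562 Y-linked genes were left out.

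Counts were rounded and tested with edgeR 4.0.16 in R 4.3.3 (robust quasi-likelihood F-test, TMM, filterByExpr with minimum count 10, Benjamini-Hochberg adjustment). Neural A04 and A10 were fitted on 8 neural libraries, the interaction on 10 libraries, and genotypes in the second series on 4 clone sums. CPM are scaled by TMM within each fit. On simulated counts with changed genes added for A04 versus A10, over 19378 genes, 28 of 67 changes of 1.5-fold, 55 of 67 of 2-fold and 65 of 66 of 4-fold were recovered, with 10 false calls (6.33% of calls).

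Genes are named if among the 10 highest or 10 lowest called log2 differences (at least 5 CPM in the higher clone, no overlap, no predicted or pseudogene symbol), among the 3 largest called of a list (at least 1 CPM), among 25 genes set beforehand, or among the 5 most abundant called on the chromosome with the largest median. Other members of a list are mentioned with their log2 difference only. The members and lists were chosen with earlier results of these data known. Same-numbered libraries of A04 and A10 did not deviate together (r = -0.01, -0.33 and -0.11), whereas those of 09 and 30 did (r = 0.39, 0.41 and 0.44), a pairing read from the data. Alternatives were RLE scaling, DESeq2 1.42.0, limma 3.58.1 (voom), other filters, a replicate block, scaling by chromosome, 12 libraries, leaving out each library and, chosen after seeing the data, GC content and length offsets. Some results are not reported here.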

Additional observations from a re-analysis of the deposited data

Results flagged for a closer look

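For 41 named genes the clone difference in neural cells departed from that in ESC in the interaction test of edgeR (adjusted p under 0.05). Values are the neural difference minus the ESC difference on the log2 scale, so that a positive value belongs to a gene whose difference was higher in neural cells than in ESC. Part of a value can be the neural difference itself, which was 1.10 for Dppa3 and 0.89 for Gbp3, 2 genes at low neural levels. Other values also exceeded the ESC difference in size, such as 3.15 for Krt7 beside -2.60 in ESC and 3.28 for Gbp2 beside -2.87.

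Germline and X-linked genes gave 3.61 for Usp26, 2.74 for Tex13b, 2.68 for Dppa3, 1.94 for Rhox5 and 1.31 for Rhox6. Interferon-related genes gave 3.83 for Gbp3, 3.28 for Gbp2 and 1.12 for Irf1. Keratins gave 3.15 for Krt7, 2.32 for Krt19, 1.65 for Krt18 and 1.54 for Krt8. Endoderm and mesoderm regulators gave 1.90 for Gata4, 1.75 for Dab2, 1.74 for Gata6 and 1.46 for Pdgfra. Smooth muscle genes gave 2.11 for Acta2 and 1.53 for Tagln.

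Among the other genes lower in A04 the values were 2.55 for Calml4, 2.37 for Wnt7b, 2.30 for Slc13a5, 2.07 for Rassf4, 2.03 for Htra1, 1.63 for Igf2, 1.62 for Cdkn2b, 1.34 for Mapt and 1.13 for Id4.

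Genes higher in A04 in ESC gave negative values. These were -3.10 for Zscan4d, -2.87 for Zscan4c, -2.67 for Zscan4b, -2.57 for Zscan4e, -2.96 for Dcc and -2.52 for Ccser1. They were -1.65 for Ccnd2, -1.42 for Magel2, -1.41 for Pcdhgb5, -1.33 for Pcdhgb6, -1.34 for Pax6, -1.08 for Sox1, -0.80 for Spry4 and -0.54 for Sf3b3. Several of these genes, among them Dcc and Pax6, are far more abundant in neural cultures than in ESC. The stage of the cells and the series of libraries cannot be told apart here.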

How the results depend on the processing

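Total counts of the clones overlapped, and genes with few counts and the spread within A04 limit what could be called. Of 91 named genes called, 50 kept their call under every alternative, and 0 changed sign. The calls between A04 and A10 (1942, 968 higher, 974 lower, 1094 at least 2-fold) became 1276, 630, 646 and 542 with genes of CPM of at least 1 in 3 libraries, and 3633, 1937 and 1696 with GC content and length offsets. With 12 libraries 1614 were lower. Leaving out 1 library gave 723 to 4780, 373 to 2277, 350 to 2503 and 636 to 1706. Neural calls (6) were 11 with DESeq2, 31 without a filter, 12 with 4 libraries and 2 to 11 without 1 library. Interaction calls (346) were 872 with DESeq2, 772 without a filter and 74 to 2191 without 1 library. A01 and A02 (479) gave 1277 with DESeq2 and 12 to 280 without 1 library, 09 and 30 (24) gave 146 and 3 to 41. The genotype comparison (4898) gave 8527 on 12 single libraries. With the offsets the deviation of A04 minus A10 was 0.33 on chromosome 8 (0.27 before) and -0.085 on chromosome 11 (-0.15 before). With genes of CPM of at least 1 in every library the median spread was 0.271 within A04 and 0.235 between clones. The cause of these changes was not tested.

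With the replicate block there were 1889 calls between A04 and A10 (843 higher, 1046 lower), 12 in neural cells, 275 in the interaction, 6717 between A01 and A02 and 309 between 09 and 30. Libraries of A01 and A02 each correlated best with their own number (r = 0.059, 0.48 and 0.50), a hint from the data only.

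Of the genes that were not called, 5 changed sign. Without 1 library Peg3 ran from -0.29 to 0.027 (above 0 without A04 replicate 3), Tbx3 from -0.047 to 0.15 (below 0 without A04 replicate 3), Pou5f1 from -0.048 to 0.28 (below 0 without A04 replicate 2) and Sox2 from -0.061 to 0.033 (0.028 without A04 replicate 2, 0.00065 without A10 replicate 2, 0.0038 without A10 replicate 3). Sox2 was 0.0059 with RLE or DESeq2, 0.00093 with genes of CPM of at least 1 and 0.051 with the offsets, with which Dnmt3b was 0.080.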
